A study of Mus musculus with 27 samples.

Results

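Pure cone photoreceptors were set against pure starburst amacrine cells of the adult mouse retina, across every gene that the arrays measured under a single name. The samples were chosen by their labels alone: 3 arrays of 200 cone cells and no starburst cells, and 3 arrays of 200 starburst cells and no cones, 6 arrays of 27 in all. The cones were sorted by GFP from the Tg(Chrnb4-EGFP)1Gsat line, a bacterial artificial chromosome transgene driven by the Chrnb4 locus, and 2 retinas were pooled. The starburst cells were sorted by RFP from 129S6-Chat_tm1(cre)Lowl/J mice crossed to the reporter line Rosa26-LSL-RFP, in which Chat-driven Cre recombinase switches on RFP, and 6 retinas were pooled. All mice were adult. Both groups are labelled with the same genetic background, a mix of C57BL/6J and an FVB/N-Swiss Webster hybrid. By the labels, hybrid mice from the MMRRC repository can carry a recessive mutation that makes photoreceptors degenerate, and were crossed to C57BL/6J before use, while other lines had been on C57BL/6J for longer. The other arrays held 6 mixtures of the same kinds of cell (18 arrays) and amacrine cells of the line Tg(Arc-EGFP)194Gsat/Mmcd (3 arrays). Cell type and mouse line cannot be told apart in this design. The design text calls the triplicates separate sorts from different mice.

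Cones are the photoreceptors of daylight vision. They carry a light-sensitive outer segment on a modified cilium, renew its membrane without pause, and release glutamate at a ribbon synapse. Starburst amacrine cells are interneurons that release both acetylcholine and GABA and make the retina's ganglion cells sensitive to the direction of motion. The genes of phototransduction and of cholinergic transmission were taken as defining markers of the cell types and were read as a check of the labels. The account below is of the remaining functions.

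The defining genes were read first. The cone opsin gene Opn1mw read 11.13, 11.34 and 10.18 on the cone arrays and 3.93, 6.04 and 3.94 on the starburst arrays, on the log2 scale of the deposited values, where 1 unit is a doubling. The vesicular acetylcholine transporter gene Slc18a3 read 3.56, 3.10 and 2.81 on the cone arrays and 10.62, 10.77 and 10.59 on the starburst arrays. Neither gene overlapped between the groups. Not all cholinergic genes differed as far. The acetylcholine-synthesising enzyme gene Chat differed by -1.04 ± 0.22 (adjusted p = 0.0026), and by less than 1 unit with quantile normalization (-0.99), without the second cone array (-0.95) and without the third starburst array (-0.78). The choline transporter Slc5a7 (-0.83 ± 0.26, adjusted p = 0.033) lay under the fold threshold, and the acetylcholinesterase Ache was not called (0.21 ± 0.44, adjusted p = 0.82). Rod genes were present in both groups, and most strongly on the third cone array. The rod transducin gene Gnat1 read 8.11, 8.28 and 10.41 on the cone arrays and 7.42, 8.49 and 7.58 on the starburst arrays. The mean over the 13 measured rod markers was 6.00, 5.83 and 6.83 on the cone arrays and 5.06, 5.51 and 5.02 on the starburst arrays. Of the markers of other cells, 8 of 14 for microglia, 6 of 13 for vessels, 7 of 12 for pigment epithelium, 6 of 14 for ganglion cells, 3 of 10 for horizontal cells, 2 of 8 for astrocytes, 4 of 19 for Muller glia, 3 of 16 for bipolar cells and 1 of 13 for rods lay at or under the filter for dim genes (2.83) on all 6 arrays. Among these were the endothelial Pecam1, the pigment epithelial Rpe65, the ganglion cell gene Rbpms, the astrocyte gene Gfap and the ON bipolar receptor gene Grm6. The filter is the median of all values, so many genes of any kind lie under it. The share of all measured genes at or under it on all 6 arrays was not counted. These marker counts therefore do not show that the cells in question were absent. Other markers lay well above the filter. The bipolar marker Lrtm1 read 8.35, 8.58 and 6.51 on the cone arrays and 5.09, 4.57 and 4.48 on the starburst arrays. Other bipolar markers were highest on the third cone array and, within their group, on the second starburst array. Pcp2 read 4.55, 4.58 and 6.56 on the cone arrays and 3.41, 5.63 and 3.78 on the starburst arrays. Gng13 read 4.76, 5.94 and 7.70 on the cone arrays and 3.66, 5.74 and 3.93 on the starburst arrays. The glial gene Clu read 8.80, 8.49 and 7.44 on the cone arrays and 6.54, 7.87 and 6.29 on the starburst arrays. Apoe, also a glial gene, read 7.47, 6.71 and 7.13 on the cone arrays and 7.61, 8.03 and 7.63 on the starburst arrays. The vessel marker Acta2 was high on the third cone array alone, with 2.12, 2.28 and 7.93 on the cone arrays and 2.26, 2.31 and 2.26 on the starburst arrays. Another, Rgs5, read 2.44, 2.17 and 4.96 on the cone arrays and 4.52, 3.49 and 2.51 on the starburst arrays. The part of vessel cells in the third cone array was not tested. The third cone array stood apart from the other cone arrays, with correlations of 0.919 and 0.920 over the tested genes against 0.955 between those. The starburst arrays correlated at 0.957 to 0.965. Among these, the second was the highest for Opn1mw, Gnat1, Pcp2, Gng13, Clu and Apoe, but not for Lrtm1 or Rgs5. It was also the highest for the glial gene Rlbp1, which read 3.65, 6.75 and 4.14 on the starburst arrays and 3.59, 3.85 and 4.14 on the cone arrays. The part of other cells in the second starburst array was not tested. Counts and medians of gene lists that the third cone array moves by over 1.5 times are given with and without it.

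Of 19301 genes, 12441 passed the filter and were tested. With an adjusted p under 0.05 and a difference of 1 log2 unit or more required, limma called 328 genes higher in cones (2.64% of the tested genes) and 720 higher in starburst cells (5.79%), 8.42% in all. Differences of at least 3 log2 units were found for 41 genes higher in cones and 51 in starburst cells. Without the third cone array, 414 genes were called for cones (3.33%) and 601 for starburst cells (4.83%), of which 292 and 549 were among the first calls. With quantile normalization the split was 441 and 500, so that 46.9% of the calls were higher in cones, against 31.3% before. Each value comes from 200 sorted cells and, after normalization between arrays, is relative to the other genes of its array. It gives no absolute amount of RNA per cell. A higher share of a transcript in each cell and more of the cells that carry it cannot be told apart. For 70 of the genes higher in cones and 82 of those higher in starburst cells, the lower group lay under the filter, and the fold change then depends on the background. The 25 leading genes in each direction were chosen among those whose groups do not overlap, so that the lack of overlap is no result for them. Errors given below are standard errors of the fit over all 27 arrays, with 3 arrays per group.

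**Figure D1:**
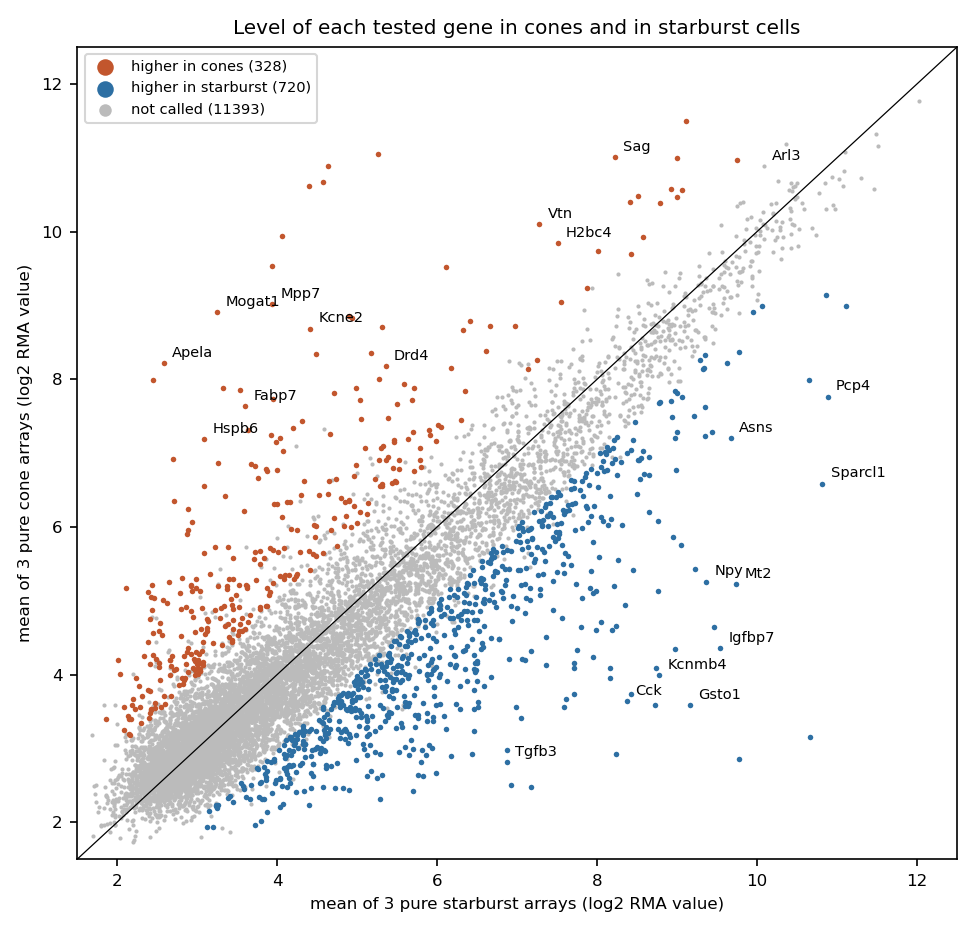
Mean log2 value of each of the 12441 tested genes on the 3 pure cone arrays (y axis) against that on the 3 pure starburst arrays (x axis); the line marks equal levels. The 328 genes called higher in cones lie above the line and the 720 called higher in starburst cells below it, with named examples.

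The levels of the 18 mixture arrays do not enter the differences between the pure cells, but these arrays share the fit's variance and its filter, and a fit of the 6 pure arrays alone called 244 genes higher in cones and 566 in starburst cells. In the mixtures the share of cones ran from 50 to 183 cells of 200, and a slope was fitted for each gene, as the log2 change from no cones to cones alone. Limma called 199 slopes rising with cones (1.6% of the tested genes) and 726 falling (5.84%). Of the 328 genes higher in pure cones, 110 rose (33.5% of the 328 and 55.3% of the 199) and 0 fell, and 314 had a positive slope. Of the 720 genes higher in pure starburst cells, 399 fell (55.4% of the 720 and 55.0% of the 726) and 0 rose, and 699 had a negative slope. Leaving out all mixture arrays of replicate 2 left 19 rising and 123 falling calls, and leaving out those of replicate 1 left 41 and 317. Without replicate 3 there were 318 and 496.

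**Figure D2:**
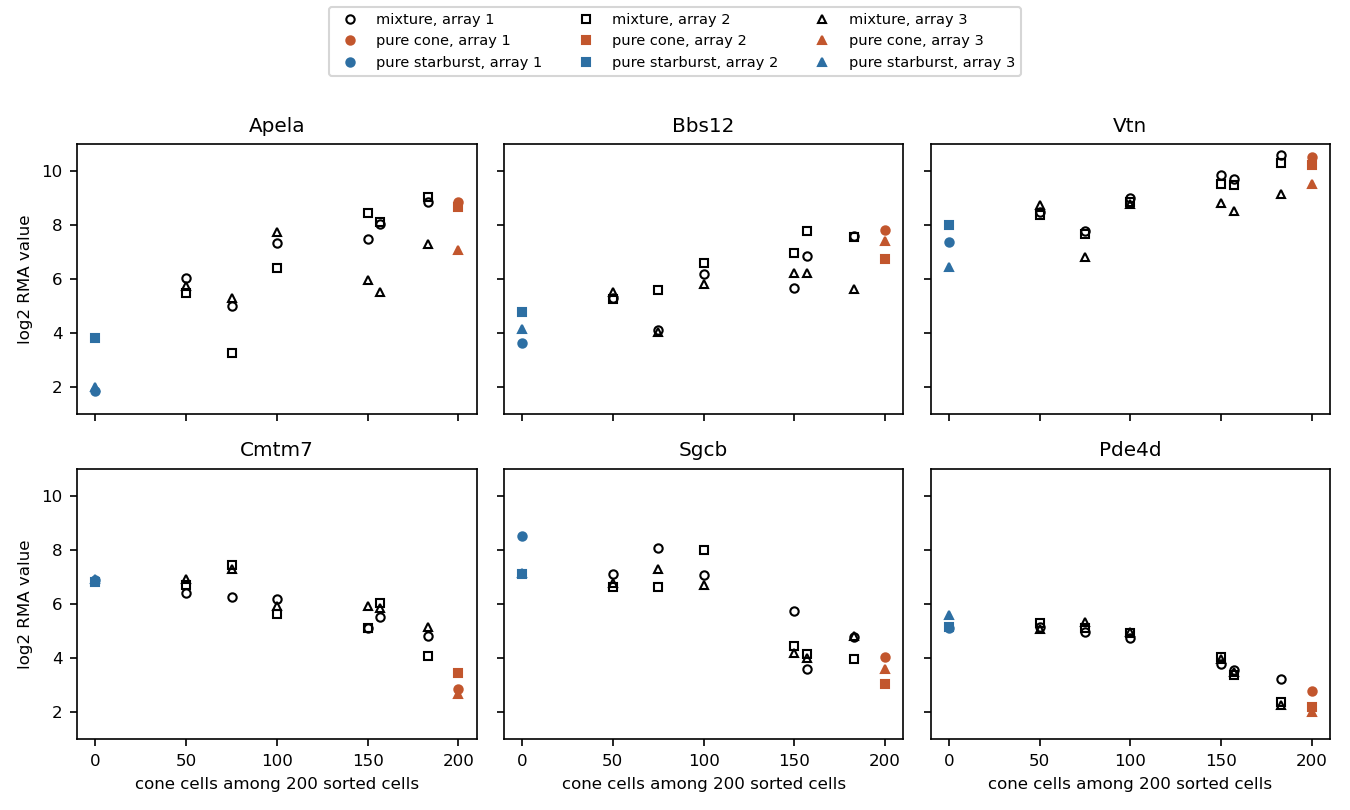
Log2 value of 6 genes (y axis) against the number of cone cells among 200 sorted cells (x axis), chosen after their values were seen. Open symbols are the 18 mixture arrays, filled symbols the pure cone arrays at 200 cones and the pure starburst arrays at 0; Apela, Bbs12 and Vtn run upward with cones and Cmtm7, Sgcb and Pde4d run downward.

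Genes that handle fatty acids and build glycerolipids were among the highest in cones. Of 40 tested members of this list, 7 were called higher in cones (17.5%) and 1 lower. The median over the list (0.01, and 0.07 without the third cone array) lay close to that over all tested genes (-0.04). The 1 lower call became 0 without the first cone or the second starburst array, and 2 without the third cone or the third starburst array. Mogat1, an acyltransferase that makes diacylglycerol from monoacylglycerol, read 9.27, 9.61 and 7.84 on the cone arrays and 2.97, 3.56 and 3.21 on the starburst arrays. Its lowest cone value lay over 4 units above its highest starburst value, and the difference of 5.66 ± 1.02 (adjusted p = 4.7e-04) was the largest among genes higher in cones outside phototransduction. The brain fatty acid-binding protein Fabp7 had values of 8.45, 8.33 and 6.10 in cones and 4.39, 3.42 and 2.99 in starburst cells (4.03 ± 0.84, adjusted p = 0.0018). Both genes were lowest among cones on the third array. The related carriers Fabp12 (2.92 ± 0.47) and Fabp4 (3.03 ± 0.55) were called as well, so that 3 of 6 tested fatty acid-binding proteins, a family added after its values were seen, were higher in cones. Lpcat2, which remodels phosphatidylcholine, read 7.27, 6.64 and 6.38 in cones and 3.47, 4.35 and 3.82 in starburst cells (2.89 ± 0.51, adjusted p = 3.4e-04). In the mixtures, the slopes of Fabp12 (2.61) and Lpcat2 (2.28) were called rising, and those of Mogat1 (3.05, adjusted p = 0.17) and Fabp7 (2.82, adjusted p = 0.13) did not pass. Cholesterol synthesis had no gene higher in cones and 2 of 22 higher in starburst cells (1 without the third cone or the third starburst array), and of the 19 sphingolipid genes limma called 0 either way (8 at an unadjusted p under 0.05, and 1 called without the third cone array). A gene of glycerolipid breakdown was higher in starburst cells: monoacylglycerol lipase, Mgll, read 3.52, 2.33 and 6.01 in cones and 7.85, 8.44 and 8.18 in starburst cells (-4.20 ± 0.59, adjusted p = 2.7e-05).

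**Figure D3:**
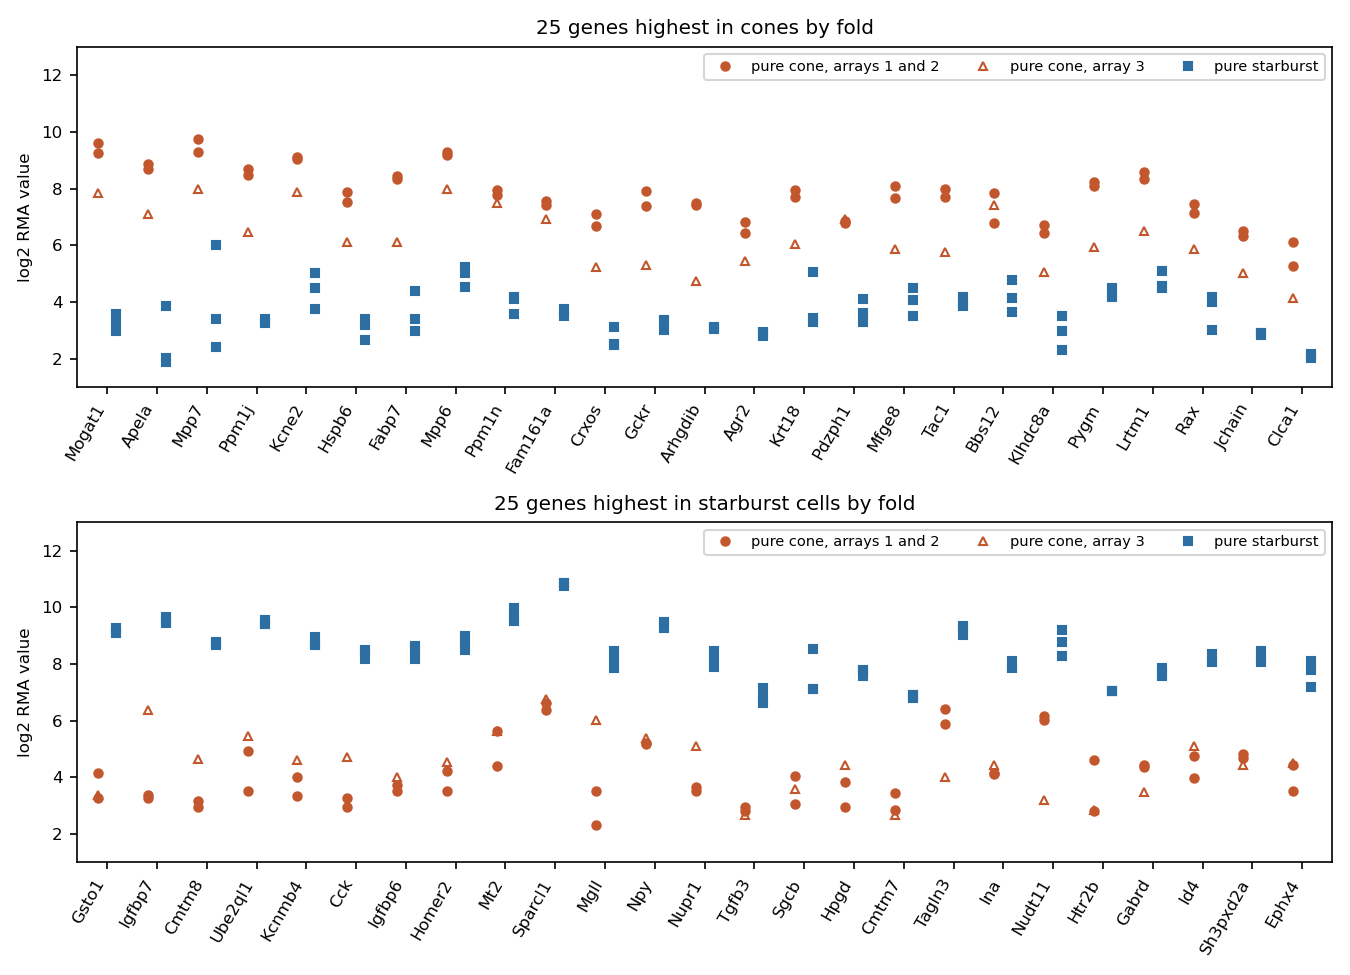
Log2 values on the single arrays (y axis) for the 25 named genes with the largest differences in each direction, phototransduction and cholinergic genes left out; upper panel higher in cones, lower panel higher in starburst cells. Within each gene the cone values stand left of the starburst values, and the open triangle is the third cone array, the lowest cone value for most genes of the upper panel.

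Of the 6 tested Mpp genes, a list added after the values were seen, 3 were higher in cones and 0 lower. They encode scaffold proteins of the MAGUK family, which gather receptors and adhesion proteins at polarised membranes. Another MAGUK gene, Dlg2, was higher in starburst cells (-1.47 ± 0.36, adjusted p = 0.0069), but not with the 6 pure arrays alone (adjusted p = 0.078) or without the first starburst array (0.066). Mpp7 read 9.31, 9.74 and 7.99 in cones and 2.41, 6.02 and 3.39 in starburst cells (5.07 ± 1.04, adjusted p = 0.0016), Mpp6 was higher by 3.90 ± 0.67 (adjusted p = 3.0e-04), and Mpp4, a protein of the photoreceptor terminal, by 2.69 ± 0.34 (adjusted p = 7.4e-06). The second starburst array was the highest of its group for Mpp7 and Mpp4. A pair of PP2C protein phosphatases, a family also added after its values were seen, followed the same direction. Ppm1j had values of 8.70, 8.47 and 6.49 in cones and 3.29, 3.27 and 3.41 in starburst cells (4.56 ± 0.78, adjusted p = 2.5e-04). Ppm1n had 7.94, 7.76 and 7.48 in cones and 3.59, 4.17 and 4.1 in starburst cells (3.77 ± 0.41, adjusted p = 9.5e-07). The other 9 tested genes of that phosphatase family were not called. Of 71 synaptic vesicle, SNARE and ribbon synapse genes, 5 were higher in cones (Mpp4 and Mpp7 among them) and 10 in starburst cells. These shares were 7.0% and 14.1%, against 2.64% and 5.79% of all tested genes. Cones were higher for the complexin Cplx3 (2.34 ± 0.43, adjusted p = 6.3e-04), which clamps vesicle release at ribbons, and, on the ion channel list, for the presynaptic calcium channel Cacna1f (2.20 ± 0.36, adjusted p = 1.6e-04). Starburst cells were higher for Erc1 (-3.33 ± 0.58, adjusted p = 3.2e-04), a scaffold of the release site, which was not called with the 6 pure arrays alone (adjusted p = 0.075), and for the vesicle protein Syt11 (-2.58 ± 0.35, adjusted p = 2.3e-05).

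Cilium and intraflagellar transport genes had 7 of 48 tested members higher in cones (14.6%) and 0 in starburst cells, with a median of 0.28. Leaving out 1 array gave 5 to 10 genes higher in cones, the 10 without the third cone array, which was also the count with quantile normalization. Bbs12, a chaperonin-like protein needed to assemble the BBSome, a coat that carries cargo in cilia, read 7.84, 6.77 and 7.42 in cones and 3.65, 4.79 and 4.15 in starburst cells (3.15 ± 0.52, adjusted p = 1.7e-04). Rpgrip1, which anchors proteins at the connecting cilium, read 6.05, 5.45 and 5.69 in cones and 3.30, 3.15 and 3.22 in starburst cells (2.51 ± 0.28, adjusted p = 1.2e-06). The third cone array lay between the other cone arrays for both. Their mixture slopes of 3.06 and 2.20 were called rising. Fam161a, a ciliary gene of inherited retinal degeneration in humans, was higher by 3.67 ± 0.24 (adjusted p = 3.7e-10) and rose in the mixtures by 2.65 ± 0.45. Among members that were not called, Arl3, a small GTPase that unloads lipid-modified proteins into cilia, read 11.02, 10.94 and 10.69 in cones and 10.17, 10.02 and 10.07 in starburst cells (0.80 ± 0.18, adjusted p = 0.0037), under the fold threshold though without overlap.

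Promoters of genes higher in cones were searched for TAATCC, the core bound by the photoreceptor factors Crx and Otx2, on both strands in RefSeq sequence of build GRCm38.p6 from 250 bases before to 50 after each start. The 6 letters were found in 13.1% of the 328 promoters listed for 258 of the genes called higher in cones, in 3.91% of the 717 promoters of genes called higher in starburst cells, and in 6.14% of the 12488 promoters of all tested genes (7.06% of the whole table of 32851). With the phototransduction genes left out, the share among genes higher in cones was 11.2% of 294. Of the 25 leading genes higher in cones, 22 had a listed promoter, and 3 of these held the match (Ppm1j, Agr2 and Lrtm1); Mogat1, Apela, Kcne2 and Fabp7 are among the 19 without it. The following stretches are shown because they hold a match in genes higher in cones of other functions, with the match in capitals (GGATTA is TAATCC read on the other strand).
Nxnl2: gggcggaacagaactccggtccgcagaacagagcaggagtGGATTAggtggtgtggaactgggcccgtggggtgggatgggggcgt
Mpp4: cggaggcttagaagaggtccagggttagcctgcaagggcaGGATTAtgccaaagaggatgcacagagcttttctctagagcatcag
Agr2: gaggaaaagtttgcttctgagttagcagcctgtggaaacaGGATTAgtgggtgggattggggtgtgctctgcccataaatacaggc
Ppm1j: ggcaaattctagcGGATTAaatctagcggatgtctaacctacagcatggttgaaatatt
They lie at chr13:51170833-51170918 on the plus strand for Nxnl2, chr1:59161614-59161699 on the minus strand for Mpp4 (the second of its listed promoters, the first having no match), chr12:35992805-35992890 on the plus strand for Agr2 and chr3:104780806-104780864 on the plus strand for Ppm1j. The match began 152, 23, 80 and 237 bases before the start in that order. Nxnl2, a thioredoxin-like protein that supports photoreceptor survival, was higher in cones by 2.77 ± 0.43 (adjusted p = 8.3e-05), and its relative Nxnl1, the source of rod-derived cone viability factor, by 2.17 ± 0.33 (adjusted p = 6.8e-05). The part of rods in these differences was not tested. Agr2, a disulfide isomerase of the endoplasmic reticulum, read 6.44, 6.83 and 5.44 in cones and 2.95, 2.90 and 2.80 in starburst cells (3.35 ± 0.64, adjusted p = 7.7e-04).

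Several genes for secreted proteins and receptors were higher in cones. Apela, a peptide ligand of the apelin receptor, read 8.88, 8.68 and 7.10 in cones and 1.88, 3.85 and 2.03 in starburst cells, whose mean lay under the filter (5.64 ± 0.74, adjusted p = 1.2e-05). Its slope in the mixtures was 4.40 ± 1.04 and was called rising. Vitronectin, Vtn, an adhesion glycoprotein, read 10.54, 10.21 and 9.54 in cones and 7.36, 8.0 and 6.46 in starburst cells (2.82 ± 0.42, adjusted p = 5.8e-05). Vtn is also on the list of vessel markers, as the only called member of 6 tested, and the part of vessel cells was not tested. The tachykinin precursor Tac1 read 7.69, 7.99 and 5.78 in cones and 4.17, 3.92 and 3.85 in starburst cells (3.17 ± 0.80, adjusted p = 0.0085). The dopamine receptor Drd4, through which dopamine lowers cyclic AMP in photoreceptors, read 8.25, 7.71 and 8.58 in cones and 4.64, 6.57 and 4.85 in starburst cells (2.82 ± 0.47, adjusted p = 1.9e-04). The phagocytosis bridge Mfge8 was called (3.18 ± 0.87, adjusted p = 0.016), but not without the first cone array (adjusted p = 0.072), the second cone array (0.059) or the first starburst array (0.066).

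Single genes of energy storage and its control were higher in cones. The glycogen phosphorylase Pygm read 8.10, 8.24 and 5.96 in cones and 4.51, 4.24 and 4.17 in starburst cells (3.13 ± 0.76, adjusted p = 0.0067). The mitochondrial creatine kinase Ckmt1 read 8.45, 8.32 and 6.89 in cones and 4.23, 5.56 and 5.14 in starburst cells (2.90 ± 0.57, adjusted p = 0.0011). Gckr, the regulatory protein of glucokinase, read 7.91, 7.40 and 5.29 in cones and 3.38, 3.37 and 3.02 in starburst cells (3.61 ± 0.73, adjusted p = 0.0014). All of these were lowest among cones on the third array. In glycolysis and glucose uptake, 2 of 24 genes were higher in cones and 3 in starburst cells; leaving out any array but the third cone array left 1 higher in cones. The lactate dehydrogenase subunit Ldhb (-2.22 ± 0.33), the phosphofructokinase Pfkm (-1.88 ± 0.33) and the aldolase Aldoc (-1.39 ± 0.18) were the ones higher in starburst cells. Aldoc is also on the Muller glia list, where 0 of 16 tested markers were higher in cones and 2 in starburst cells. The mean over the 19 measured Muller markers was 4.34, 4.18 and 4.46 on the cone arrays and 4.54, 4.91 and 4.53 on the starburst arrays, and the part of glia in the result was not tested. The hexokinase Hk1, not called, read 10.46, 10.51 and 10.90 in cones and 10.36, 10.38 and 10.69 in starburst cells, which overlap.

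Oxidative phosphorylation showed no called difference. Of 39 tested subunit genes limma called 0 (8 had an unadjusted p under 0.05, and leaving out the third cone array gave 1 call), and for 33 the 95% interval of the difference lay within 1 log2 unit of 0, against 64.5% of all tested genes. The cytochrome oxidase subunit Cox4i1 read 10.68, 10.55 and 9.86 in cones and 10.99, 10.86 and 11.02 in starburst cells, apart but under the fold threshold (-0.59 ± 0.16, adjusted p = 0.014). Another subunit, Cox6a1, overlapped: it read 10.61, 10.76 and 10.44 in cones and 10.47, 10.30 and 10.57 in starburst cells. Of 33 axon guidance genes limma called 0 (6 had an unadjusted p under 0.05), and 30 had an interval within 1 unit, with 2 called higher in cones without the first cone array. Of 28 Wnt signalling genes limma called 0 (4 had an unadjusted p under 0.05), and 23 had an interval within 1 unit. These 2 lists were dim. Mean levels on the 6 arrays ran from 2.66 to 2.75 over the measured axon guidance genes and from 2.83 to 2.90 over those of Wnt signalling. The filter was 2.83, and oxidative phosphorylation genes averaged 8.26 to 8.74. Near background an interval can be narrow whether or not the cells differ, so these counts do not show like levels.

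Histone genes gave 6 of 25 tested members higher in cones and 0 lower, a list added after the values were seen. The core histone gene H2bc4 read 9.88, 9.79 and 9.87 in cones and 7.38, 7.89 and 7.26 in starburst cells (2.34 ± 0.23, adjusted p = 2.0e-07), with the cone arrays within 0.1 unit of each other. The median of the list was 0.14 (0.06 without the third cone array), and the other called members lay between 1.00 and 2.91. Leaving out 1 array gave 3 to 6 such genes, the 3 without the second cone array. Members of this family are nearly alike in sequence, and how far probes of one bind transcripts of another was not tested.

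**Figure D4:**
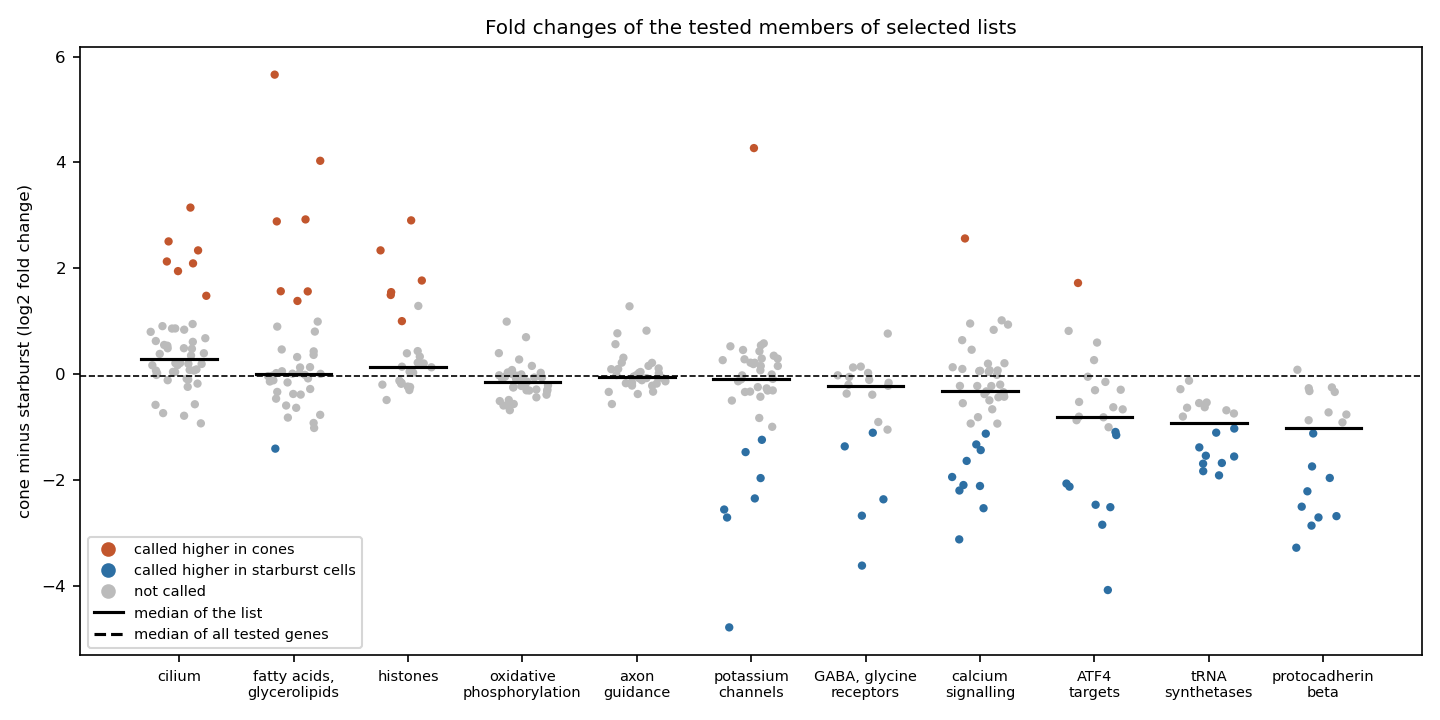
Difference of cones minus starburst cells (y axis, log2) for each tested member of 11 lists; bars are list medians and the dashed line the median of all tested genes (-0.04). Called members of the cilium and histone lists lie above 0, as do all but 1 of the fatty acid list, while those of tRNA synthetases and beta protocadherins lie below it, as do all but 1 each of calcium signalling and of ATF4 targets.

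Receptors for inhibitory transmitters differed only by genes higher in starburst cells. Of 19 tested GABA and glycine receptor genes, 0 were higher in cones and 5 in starburst cells (26.3%). Their median was -0.22, and -0.41 without the third cone array. Gabrd, the delta subunit of GABA-A receptors outside synapses, read 4.38, 4.43 and 3.47 in cones and 7.58, 7.86 and 7.68 in starburst cells (-3.62 ± 0.25, adjusted p = 8.3e-10). Gabrb1 read 2.50, 2.59 and 2.82 in cones, all under the filter, and 4.72, 5.61 and 5.59 in starburst cells (-2.67 ± 0.29, adjusted p = 7.6e-07). The alpha subunit Gabra4 differed by -2.36 ± 0.30 and the glycine receptor subunit Glrb by -1.36 ± 0.23. The slopes of these 4 genes in the mixtures fell, by 2.60, 2.71, 1.86 and 1.80 in that order. Glutamate receptors and transporters had 2 of 33 higher in cones (6.1%) and 6 in starburst cells (18.2%), against 2.64% and 5.79% of all tested genes. The scaffold Homer2, which links group I metabotropic receptors to calcium stores, read 3.51, 4.22 and 4.55 in cones and 8.48, 8.72 and 8.99 in starburst cells (-4.64 ± 0.33, adjusted p = 2.5e-09). The presynaptic receptors Grm8 (-2.74 ± 0.28) and Grm2 (-2.12 ± 0.25) and the AMPA receptor partners Cacng3 (-2.95 ± 0.47) and Cacng2 (-2.43 ± 0.37) were called in the same direction.

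Peptide genes also differed on both sides. The neuropeptide list had 3 of 43 genes higher in cones (7.0%) and 5 in starburst cells (11.6%), against 2.64% and 5.79% of all tested genes. With 1 array left out these counts ran from 2 to 4 and from 4 to 7. Neuropeptide Y, Npy, read 5.17, 5.21 and 5.39 in cones and 9.25, 9.48 and 9.36 in starburst cells (-4.11 ± 0.24, adjusted p = 5.8e-11). Cholecystokinin, Cck, read 3.26, 2.95 and 4.71 in cones and 8.18, 8.48 and 8.45 in starburst cells (-4.73 ± 0.41, adjusted p = 3.6e-08). The opioid and melanocortin precursor Pomc (-3.42 ± 0.34, adjusted p = 2.4e-07) and the granin Scg2 (-2.11 ± 0.27, adjusted p = 9.4e-06) followed. The spread within the starburst group was under 0.5 unit for each of these 4 genes. Htr2b, a serotonin receptor, read 4.59, 2.82 and 2.84 in cones and 7.03, 7.05 and 7.05 in starburst cells (-3.63 ± 0.42, adjusted p = 2.4e-06).

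Potassium channels and calcium handling differed mostly by genes higher in starburst cells. Of 39 potassium channel genes, 1 was higher in cones and 7 in starburst cells (17.9%). Kcnmb4, the neuronal beta subunit of the calcium-activated BK channel, read 4.0, 3.35 and 4.62 in cones and 8.68, 8.94 and 8.70 in starburst cells (-4.78 ± 0.30, adjusted p = 3.0e-10). The leak channel Kcnk1 (-2.71 ± 0.25), the A-type channel partner Kcnip1 (-2.56 ± 0.39) and the silent subunit Kcnf1 (-2.35 ± 0.24) came next. The single subunit higher in cones was Kcne2, which read 9.13, 9.05 and 7.88 in cones and 4.48, 5.02 and 3.75 in starburst cells (4.27 ± 0.63, adjusted p = 4.7e-05). Calcium-binding and calcium signalling genes had 1 of 43 higher in cones (2 without the third cone array) and 10 in starburst cells (23.3%), with a median of -0.32. The calmodulin regulator Pcp4 read 6.90, 6.66 and 9.73 in cones and 10.91, 10.78 and 10.96 in starburst cells (-3.12 ± 0.44, adjusted p = 3.4e-05; 0.052 in a fit of the 6 pure arrays alone). The sodium-calcium exchanger Slc8a1 read 3.45, 3.31 and 5.61 in cones and 7.07, 7.41 and 7.61 in starburst cells (-3.24 ± 0.43, adjusted p = 1.6e-05). The third cone array held by far the highest cone value for both genes. Efhd2 (-2.53 ± 0.23) and Necab2 (-2.11 ± 0.29), both EF-hand proteins, had cone values that spanned less. The calcium-binding gene higher in cones was Cabp5 (2.56 ± 0.38, adjusted p = 4.9e-05). It is also a bipolar marker, on a list with 4 of 14 tested members higher in cones and 1 lower. The mean over the 16 measured bipolar markers was 3.78, 3.73 and 4.29 on the cone arrays and 3.20, 3.80 and 3.23 on the starburst arrays, and the part of bipolar cells was not tested.

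Second-messenger genes leaned the same way: of 62 genes of cyclic AMP, cyclic GMP and G protein signalling, 2 were higher in cones and 15 in starburst cells (24.2%), with a median of -0.35. The cyclic AMP phosphodiesterase Pde4d read 2.77, 2.17 and 2.01 in cones, all under the filter, and 5.10, 5.14 and 5.61 in starburst cells (-2.97 ± 0.22, adjusted p = 3.3e-09), and its mixture slope of -3.81 was called falling. The cyclic GMP phosphodiesterase Pde9a (-2.27 ± 0.33) and the G protein subunits Gng3 (-2.64 ± 0.34) and Gna11 (-2.20 ± 0.41) were called too. In cones, 2 weaker calls went the other way, and both depended on single arrays. Pde8b (1.35 ± 0.34) had an adjusted p of 0.059 without the first cone array, and Rgs20 (1.44 ± 0.35) one of 0.061 without the second.

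**Figure D5:**
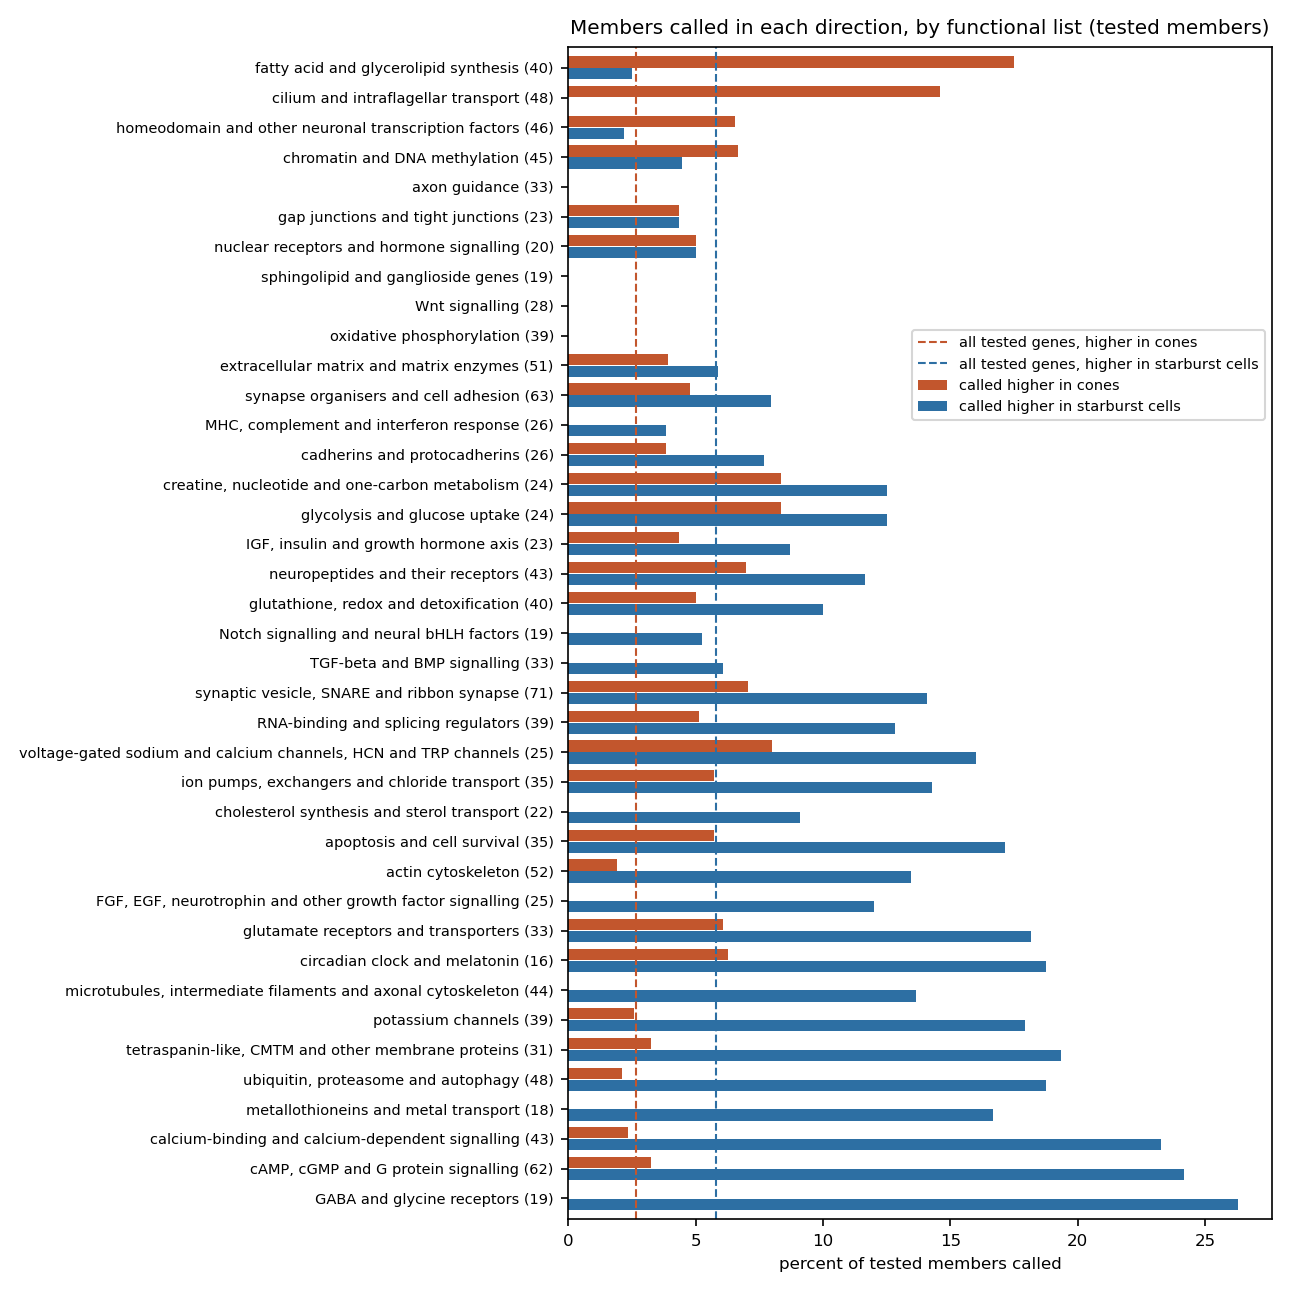
Percent of tested members called in each direction (x axis) for the 39 functional lists, with the number of tested members in brackets; dashed lines give the shares over all tested genes (2.64% and 5.79%). Fatty acid and cilium lists have the longest bars for cones, and GABA and glycine receptors, cyclic nucleotide signalling and calcium signalling the longest for starburst cells.

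Protocadherins of the beta cluster, adhesion molecules that give single neurons different surface identities, were called higher in cones for 0 of 18 tested members and higher in starburst cells for 9, with a median of -1.02 against -0.04 for all genes. This family was added after its values were seen. Pcdhb3 read 5.26, 6.24 and 6.72 in cones and 8.57, 8.69 and 9.0 in starburst cells (-2.68 ± 0.29, adjusted p = 8.2e-07). Pcdhb12 read 2.95, 2.31 and 2.01 in cones, with a mean under the filter, and 5.60, 5.65 and 5.86 in starburst cells (-3.28 ± 0.36, adjusted p = 9.5e-07). No cone value reached the lowest starburst value for either. The count was 8 or 9 whichever array was left out and 9 with quantile normalization, and 6 of the 18 slopes fell in the mixtures. As with the histones, cross-binding of probes between these near copies was not tested. Of 26 cadherins and protocadherins outside the cluster, 1 was higher in cones (2 without the third cone array, 0 with the stricter filter) and 2 in starburst cells. These shares, 3.8% and 7.7%, lay near those over all tested genes (2.64% and 5.79%). Pcdh15, a protocadherin of photoreceptors and hair cells, was higher in cones (2.34 ± 0.27, adjusted p = 2.2e-06). Pcdh10 (-1.72 ± 0.19, adjusted p = 8.7e-07) and Cdh6 (-1.97 ± 0.24, adjusted p = 6.2e-06) were higher in starburst cells. Among synapse organisers, 3 of 63 were higher in cones (5 without the third cone array) and 5 in starburst cells. Their shares of 4.8% and 7.9% were also near those over all tested genes. The receptor phosphatase Ptprd read 3.85, 3.85 and 4.87 in cones and 6.32, 6.56 and 6.6 in starburst cells (-2.30 ± 0.28, adjusted p = 3.5e-06), while C1ql3, a secreted synaptic ligand, was higher in cones by 1.80 ± 0.35 (adjusted p = 9.0e-04). In the matrix, the synapse-promoting glycoprotein Sparcl1 read 6.63, 6.37 and 6.76 in cones and 10.84, 10.85 and 10.76 in starburst cells (-4.23 ± 0.19, adjusted p = 4.9e-13).

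Amino acid and tRNA-charging genes were higher in starburst cells. Aminoacyl-tRNA synthetases load amino acids onto tRNAs, and many are switched on together with amino acid transporters and asparagine synthetase by the transcription factor ATF4. All 18 tested synthetases of the cytosol were lower in cones by value (from -0.12 to -1.91, median -0.91), and 0 were called in favour of cones and 9 of starburst cells. Sars read 5.86, 4.78 and 5.42 in cones and 7.22, 7.36 and 7.22 in starburst cells (-1.91 ± 0.22, adjusted p = 2.8e-06). Yars read 5.38, 5.22 and 5.06 in cones and 7.40, 6.96 and 6.79 in starburst cells (-1.83 ± 0.24, adjusted p = 1.6e-05), and Gars read 6.01, 6.17 and 5.60 in cones and 7.44, 7.55 and 7.47 in starburst cells (-1.56 ± 0.19, adjusted p = 5.2e-06). The groups were apart for each, and 8 synthetase slopes fell in the mixtures. Of 23 tested ATF4 target genes, 1 was higher in cones and 8 in starburst cells (median -0.80). Both lists were added after the values were seen. Asparagine synthetase, Asns, read 7.55, 6.55 and 7.51 in cones and 9.66, 9.70 and 9.65 in starburst cells (-2.47 ± 0.24, adjusted p = 2.4e-07). The stress regulator Nupr1 read 3.64, 3.51 and 5.09 in cones and 8.45, 7.88 and 8.15 in starburst cells (-4.08 ± 0.33, adjusted p = 1.8e-08), and Chac1, which degrades glutathione, 3.94, 3.58 and 3.99 in cones and 5.59, 6.01 and 6.28 in starburst cells (-2.12 ± 0.30, adjusted p = 3.0e-05). Mthfd2 (-2.84 ± 0.33), a mitochondrial folate enzyme, Herpud1 (-2.51 ± 0.27), of endoplasmic reticulum quality control, and Slc3a2 (-2.07 ± 0.23), the shared chain of amino acid transporters, were called as well. Atf4 itself, also named after its value was seen, differed by -1.04 ± 0.20 (adjusted p = 0.0010), but by -0.90 without the third cone array and by -0.70 with quantile normalization, under the fold threshold. The exception was Cth, of cysteine synthesis, higher in cones by 1.72 ± 0.30 with starburst values under the filter.

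Lists of other stress genes were read beside these. Immediate early and dissociation genes had 1 of 23 tested members higher in cones and 1 in starburst cells, and heat shock genes had 1 and 1 of 16. Without single arrays these counts of 1 became 0 for heat shock genes (second cone, first or second starburst array) and 0 or 2 for early genes higher in starburst cells (0 without the third cone or first starburst array, 2 without the third starburst array). An unadjusted p under 0.05 was found for 6 of the 23 early genes (4 higher in cones, 2 in starburst cells). It was found for 9 of the 16 heat shock genes (3 higher in cones, 6 in starburst cells), of which 5 had an adjusted p under 0.05 at any fold. The part of stress in the differences was not tested. The mean level over the 24 measured immediate early genes was 3.56, 3.55 and 3.49 on the cone arrays and 3.50, 3.39 and 3.49 on the starburst arrays. The chaperone Hsp90aa1 read 10.79, 10.65 and 10.63 in cones and 10.39, 10.30 and 10.09 in starburst cells (0.43 ± 0.11, adjusted p = 0.013), under the fold threshold. In the Arc amacrine cells, from another line, Asns averaged 8.92, Sars 7.08, Gars 6.70, Chac1 4.74 and Nupr1 3.79. The first 4 of these means lay above the highest cone array of their gene, and the Nupr1 mean lay within the cone values.

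The same RefSeq promoters were searched for TGATGNAA on both strands, the core of the element that C/EBP and ATF4 dimers bind. It was found in 36.4% of the 11 promoters listed for 11 of the synthetases (4 promoters), in 29.2% of the 24 promoters listed for 20 of the ATF4 targets (7 promoters), in 1.83% of promoters of genes called higher in cones, in 3.07% of those of genes called higher in starburst cells, and in 2.35% of the promoters of all tested genes (3.97% of the whole table). ATF4 targets were listed for their known control by this factor, and many synthetases are under the same control. The share of neither list is therefore independent of the motif. The stretches below belong to called members of these lists that hold a match, with the match in capitals in the sequence of the gene's strand (matches that end in CATCA are TGATGNAA on the other strand).
Asns: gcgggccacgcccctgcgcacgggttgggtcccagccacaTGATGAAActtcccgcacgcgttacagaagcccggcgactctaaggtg
Chac1: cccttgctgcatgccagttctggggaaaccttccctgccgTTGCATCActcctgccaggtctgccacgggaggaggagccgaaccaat
Nupr1: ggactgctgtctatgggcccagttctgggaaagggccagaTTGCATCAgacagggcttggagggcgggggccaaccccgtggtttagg
Herpud1: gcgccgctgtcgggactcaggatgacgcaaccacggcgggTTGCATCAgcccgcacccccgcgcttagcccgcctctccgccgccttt
Gars: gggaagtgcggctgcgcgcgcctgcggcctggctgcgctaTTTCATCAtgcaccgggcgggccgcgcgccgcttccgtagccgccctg
Tars: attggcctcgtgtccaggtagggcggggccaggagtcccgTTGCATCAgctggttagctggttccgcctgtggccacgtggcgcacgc
They lie at chr6:7693185-7693272 (minus strand, Asns), chr2:119351009-119351096 (plus, Chac1), chr7:126625533-126625620 (minus, Nupr1), chr8:94386277-94386364 (plus, Herpud1), chr6:55037931-55038018 (plus, Gars) and chr15:11399626-11399713 (minus, Tars). The match began 23 bases before the start in Asns, 193 in Chac1, 110 in Nupr1, 112 in Herpud1, 30 in Gars and 15 in Tars. Yars and Iars hold a match that begins after the start and are not shown. The listed promoters of Ddit3, Mthfd2, Slc3a2, Sars and Mars1 hold no match in this window. Tars differed by -1.10 ± 0.22 (adjusted p = 0.0011), with a difference of -0.92 without the first starburst array and -0.77 with quantile normalization, both under the fold threshold.

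Detoxification and metal buffering held large differences of single genes. Gsto1, a glutathione transferase of the omega class, read 4.15, 3.26 and 3.36 in cones and 9.28, 9.12 and 9.09 in starburst cells (-5.57 ± 0.22, adjusted p = 9.0e-14). Of the other 39 tested glutathione and redox genes, 2 were higher in cones and 3 in starburst cells. The metallothioneins, cysteine-rich proteins that hold zinc and copper, differed in the same direction. Mt2 read 4.41, 5.63 and 5.63 in cones and 9.97, 9.73 and 9.51 in starburst cells (-4.52 ± 0.40, adjusted p = 4.7e-08), and Mt1 differed by -2.45 ± 0.28 (adjusted p = 2.3e-06). The neuronal metallothionein Mt3 was not called (0.12 ± 0.13, adjusted p = 0.61).

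The binding protein Igfbp7 read 3.39, 3.29 and 6.39 in cones and 9.44, 9.51 and 9.66 in starburst cells (-5.18 ± 0.53, adjusted p = 4.2e-07), with the third cone array 3 units above the others. Igfbp6, which prefers IGF-II, read 3.72, 3.51 and 4.0 in cones and 8.64, 8.18 and 8.44 in starburst cells (-4.68 ± 0.39, adjusted p = 1.9e-08). The transforming growth factor Tgfb3 read 2.94, 2.82 and 2.67 in cones, with a mean under the filter, and 7.17, 6.64 and 6.80 in starburst cells (-4.06 ± 0.22, adjusted p = 1.5e-11). Id4, a target of BMP signals that blocks bHLH factors, differed by -3.58 ± 0.24 (adjusted p = 8.3e-10). Of 25 genes of FGF, EGF, neurotrophin and other growth factor signalling, 0 were higher in cones and 3 in starburst cells: Fgf12 (-1.41 ± 0.18), Ptn (-1.41 ± 0.28) and Gfra1 (-1.23 ± 0.26, but -0.99 with quantile normalization). Of 33 TGF-beta and BMP genes, 0 were higher in cones and 2 in starburst cells (6.1%). Of 23 IGF and insulin genes, 1 was higher in cones (4.3%) and 2 in starburst cells (8.7%). The shares over all tested genes were 2.64% for cones and 5.79% for starburst cells, and the counts of these 2 lists lay near them.

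Of 48 genes of ubiquitin, the proteasome and autophagy, 1 was higher in cones and 9 in starburst cells (18.8%). Their median was -0.35, and -0.22 without the third cone array. Ube2ql1, a ubiquitin-conjugating enzyme-like protein, read 4.94, 3.52 and 5.46 in cones and 9.41, 9.41 and 9.55 in starburst cells (-4.81 ± 0.31, adjusted p = 4.0e-10). Fbxo2, an F-box protein that recognises sugar chains (-2.66 ± 0.52, adjusted p = 0.0011), Ube2e3 (-1.91 ± 0.18, adjusted p = 1.4e-07) and the neuronal hydrolase Uchl1 (-1.87 ± 0.30, adjusted p = 1.2e-04) were also called. The deubiquitinase Usp2 was the one higher in cones (1.73 ± 0.42, adjusted p = 0.0064). Subunits of the vacuolar proton pump, which acidifies lysosomes and synaptic vesicles, are a list added after the values were seen and had 0 of 19 members higher in cones and 6 in starburst cells, but 2 higher in starburst cells without the third cone array, 3 without the first starburst array and 3 with quantile normalization; the range over arrays left out was 2 to 9. Atp6v1e1, the member with the largest difference, read 7.41, 6.88 and 5.81 in cones and 8.82, 8.66 and 8.48 in starburst cells (-1.95 ± 0.27, adjusted p = 2.2e-05). Its lowest cone value was again on the third array.

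The cytoskeleton and cell surface gave further single genes. Ina, the neuronal intermediate filament alpha-internexin, read 4.11, 4.16 and 4.45 in cones and 8.12, 7.89 and 7.86 in starburst cells (-3.71 ± 0.28, adjusted p = 4.0e-09). Axonal tau, Mapt, differed by -1.28 ± 0.18 (adjusted p = 2.7e-05). The microtubule and filament list had 0 of 44 higher in cones and 6 in starburst cells, but 1 and 2 with quantile normalization, and 3 to 7 higher in starburst cells with 1 array left out (3 without the second cone array; 1 rather than 0 higher in cones without the third), so that the count depends on the scaling and on single arrays. The membrane proteins Cmtm8 (-5.13 ± 0.27, adjusted p = 1.0e-11) and Cmtm7 (-3.89 ± 0.31, adjusted p = 1.3e-08), of the MARVEL family, were higher in starburst cells. Sgcb, a sarcoglycan of the dystrophin complex, read 4.04, 3.05 and 3.61 in cones and 8.51, 7.11 and 7.13 in starburst cells (-4.02 ± 0.45, adjusted p = 1.7e-06), and its slope of -5.18 was called falling. Keratin Krt18 was higher in cones by 3.32 ± 0.64 (adjusted p = 8.9e-04).

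Of 46 neuronal transcription factor genes, 3 were higher in cones (6.5%) and 1 in starburst cells (2.2%), against 2.64% and 5.79% of all tested genes. With 1 array left out the count for cones ran from 2 to 3. The count for starburst cells was 2 without the first or second starburst array. Rax, a homeobox gene of eye development, read 7.46, 7.15 and 5.88 in cones and 3.01, 4.19 and 3.99 in starburst cells (3.10 ± 0.52, adjusted p = 2.3e-04), and Lmo2 was higher in starburst cells (-1.63 ± 0.27, adjusted p = 2.2e-04). The thyroid hormone receptor gene Thra differed by -1.90 ± 0.32 (adjusted p = 1.9e-04). The bHLH factor Neurog2 read 3.80, 3.11 and 3.94 in cones and 5.41, 5.83 and 5.71 in starburst cells (-2.03 ± 0.30, adjusted p = 4.4e-05). Neuronal RNA-binding proteins had 2 of 39 members higher in cones (5.1%) and 5 in starburst cells (12.8%). The 2 became 1 without the first cone or first starburst array and 0 without the second cone or the third starburst array. The splicing factors Rbfox1 (-1.74 ± 0.30), Celf2 (-1.59 ± 0.24) and Celf4 (-1.42 ± 0.25) were among the 5, and their slopes in the mixtures were called falling. The circadian clock and melatonin list had 1 of 16 higher in cones (Drd4, the dopamine receptor above) and 3 in starburst cells, with Dbp (-1.20 ± 0.20) among the 3, but 0 of the 16 higher in starburst cells with quantile normalization.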

How the data were processed

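Gene arrays measured RNA of 200 sorted cells each. Per the submitters' processing notes, the authors made the deposited log2 values with RMA in the oligo package (R 2.11.1) and named build mm9; the arrays normalized together are not given in the sources used here. Array medians lay between 2.78 and 2.89, and 0 array pairs were identical. Of 22347 probe sets, 19446 had 1 gene symbol in the platform table, 735 several and 2166 none; the last 2 kinds were left out, and for 133 genes the probe set with the highest mean was kept.

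The filter kept genes whose value passed 2.83, the overall median, on 3 or more arrays. One limma fit (version 3.58.1, R 4.3.3; lmFit and eBayes, a mean for each of 9 groups, 18 residual degrees of freedom, prior 3.42) covered all 27 arrays, with Benjamini-Hochberg adjustment over 12441 genes and two-sided tests. Slopes on the share of cones used the 18 mixture arrays and had no fold threshold; the pure and mixture cells may come from the same pools. The step was tested on simulated data.

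The comparison, the members and the 57 gene lists were chosen with earlier results of these data known, and 10 more lists were added after the values were seen. Named genes are the 25 largest differences in each direction without overlap, predicted names and phototransduction or cholinergic list genes left out, up to 4 called members per list and direction, up to 2 uncalled members with the highest mean values, and the defining genes; called members of the 10 added lists, Atf4, Dlg2, Slc5a7, Ache and the genes of the mixture plot were chosen after their values were seen. Lists gave 1844 measured functional genes, 44 symbols having been updated through RefSeq synonyms. Promoters are RefSeq, build GRCm38.p6. Alternatives were other filters, normalizations, fits and left-out arrays. Precision is limited by 3 arrays per group. Same-numbered cone and starburst arrays correlated at 0.030, 0.014 and 0.056 after removal of group means, so the numbers were not used as pairs.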

Additional observations from a re-analysis of the deposited data

How the results depend on the processing

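The genes higher in cones numbered 328 and stayed within 1.5 times of that under the 14 alternatives (244 with the 6 pure arrays alone to 441 with quantile normalization); with 1 array left out they ran from 256 to 414. Those higher in starburst cells numbered 720, from 500 with quantile normalization to 757 without the first cone array. With the replicate number as a block the counts were 355 and 726. The numbers were not used as pairs, and the second cone array correlated best with the first starburst array. Lens crystallin genes, however, were highest on the second array of both groups. The mean over the 12 measured was 2.83, 3.57 and 3.06 on the cone arrays and 2.87, 4.14 and 3.15 on the starburst arrays. Whether same-numbered arrays share a preparation was not tested. In all 14 alternatives 155 and 377 genes kept their call. The mixture slopes were less stable: rising calls numbered 199, and 19 to 318 with 1 replicate left out, and falling calls numbered 726, 123 to 496 with 1 replicate left out and 400 with quantile normalization. The stricter filter moved the median over genes by -0.15, and the other pure alternatives by under 0.1. Detection of small differences is limited by 3 arrays per group and by signal near background in dim genes.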
